A study of Mus musculus with 6 samples.

Results

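The genes described here are 10 mouse genes of the YAP pathway: Ctgf, Cyr61, Ankrd1, Axl, Ajuba, Lats2, Amotl2, Amotl1, Yap1 and Tead1. They were chosen by symbol from 54532 genes in the deposited FPKM table (reads scaled to gene length and library size), and all 10 were found there. Their levels in these same libraries were already known when they were chosen, so their values are given as a description with no p-values, and counts of calls among them support nothing. The symbol Lats2 stands on 2 rows, of which one is at 0 in every library. All 10 genes averaged at least 1 FPKM over the 6 libraries, as did 12098 genes in all. Although the set is labelled YAP target genes, Yap1 encodes the coactivator itself and Tead1 its DNA-binding partner.

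The cells were mouse embryonic fibroblasts that expressed the adenoviral oncoprotein E1A and the activated Ras protein HRasV12. One group of 3 libraries carried a control hairpin (shLuc_dox) and the other 3 a hairpin that lowers Mettl3 (shMettl3_dox). No other hairpin against Mettl3 is among the libraries, so other effects of this hairpin cannot be told apart from those of lower Mettl3. Mettl3 is the catalytic subunit of the enzyme that places N6-methyladenosine (m6A) on mRNA. Every library, the controls included, came from cells given doxorubicin at 0.2 ug/ml for 6 hours, so the comparison covers cells with E1A, HRasV12 and the drug, and no untreated cells. The study asked which genes fall when Mettl3 is lowered under DNA damage.

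YAP and its paralogue TAZ (encoded by Wwtr1) are transcriptional coactivators that reach DNA through the TEAD factors. In the Hippo pathway the MST kinases activate the LATS kinases, which phosphorylate YAP and TAZ and keep them out of the nucleus. In fibroblasts YAP and TAZ respond to stiffness, cell spreading and serum, and Ctgf, Cyr61 and Ankrd1 are the genes most often read as their output. The protein's phosphorylation and location were not measured here.

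Recovered depth was 16869384 to 19977920 reads in the shLuc_dox libraries and 17508192 to 25258173 in the shMettl3_dox libraries. The shMettl3_dox replicate 3 stood apart: against its 2 replicates the chi-square of recovered reads per degree of freedom was 11.1 and 12.7, where the other pairs within a group gave 3.34 to 4.39. Mettl3 itself averaged 2.73 ± 0.360 FPKM in shLuc_dox and 1.49 ± 0.185 in shMettl3_dox (SD, n = 3 each, limma adjusted p = 0.00861). Exons of Tox4 on the other strand cover 18.4% of the Mettl3 exon bases. Tox4 averaged 9.91 FPKM, more than Mettl3, and whether counting used strand is not stated. Its part in the Mettl3 level was not tested. Of 15 fibroblast markers 7 averaged at least 1 FPKM, among them Vim, Fn1 and Twist1. Col1a1, Col1a2, Col3a1, Thy1, Lum, Dcn and Postn, which also define fibroblasts, were all below that level. The summed fibroblast list was 959 to 1007 FPKM in shLuc_dox and 848 to 915 in shMettl3_dox. Most of the sum was Vim, at 818 ± 25.7 and 703 ± 34.0 FPKM (limma adjusted p = 0.0259). Pdgfra was also called lower, while Fn1, Twist1, Col5a1, Pdgfrb and Prrx1 did not pass.

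Before the values, the sequences before RefSeq starts of these genes are shown, because TEAD binding is what ties YAP to its targets. TEAD factors recognise the hexamer GGAATG, read as CATTCC on the other strand. RefSeq promoters (GRCm38.p6) were at hand for 8 of the 10 genes, all but Ctgf and Tead1. In the 250 bases before the RefSeq start, 6 of the 8 held the hexamer on either strand: Ankrd1, Ajuba, Cyr61, Amotl2, Axl and Yap1. It was present for 14.4% of 27025 genes in the same window. In related lists described below, shares were 33.3% of 12 paralogues and partners, 29.4% of 34 Hippo genes and 28.6% of 21 further targets. For the target signature the share was 20% of 10 genes. Among tested genes the hexamer was in 13.5% of 1372 called higher by limma, 13.7% of 1263 called lower and 11.9% of 6073 not passing. The share was thus alike for higher and lower genes. Ankrd1 and Ajuba each held 2 copies. Amotl1 held none, nor did either Lats2 start. RefSeq and GENCODE M21, the source of the gene coordinates given with the values, place some starts differently. For Cyr61, Ajuba, Axl and Yap1 the windows lie outside the M21 exons. The RefSeq start of Ankrd1 lies 255 bases into the M21 gene and its whole window is in M21 exons, and that of Amotl2 lies 1132 bases in, with 136 window bases in exons, so neither is printed. The Amotl1 start lies 30056 bases into the M21 gene and the Lats2 starts 12265 and 23970 bases, so the missing hexamer there concerns these internal starts alone. The AP-1 site TGANTCA, a palindrome, was in none of the 8 and in 6.75% of 32851 promoters. The 4 sequences below run 5′ to 3′ on the gene's strand and end at the base before the start, with the hexamers in capitals. The first 3 belong to genes with higher mRNA in the knockdown libraries; that of Yap1, whose mRNA level overlapped between groups, is set beside them. A match to these letters is not a measured binding site.
Cyr61 chr3:145649986-145650235 (minus strand): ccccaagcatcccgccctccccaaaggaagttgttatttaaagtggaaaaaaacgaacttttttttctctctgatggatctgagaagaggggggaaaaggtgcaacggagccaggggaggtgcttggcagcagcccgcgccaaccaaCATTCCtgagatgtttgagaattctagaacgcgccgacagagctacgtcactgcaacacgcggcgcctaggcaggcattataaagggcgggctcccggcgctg
Ajuba chr14:54577662-54577911 (minus strand): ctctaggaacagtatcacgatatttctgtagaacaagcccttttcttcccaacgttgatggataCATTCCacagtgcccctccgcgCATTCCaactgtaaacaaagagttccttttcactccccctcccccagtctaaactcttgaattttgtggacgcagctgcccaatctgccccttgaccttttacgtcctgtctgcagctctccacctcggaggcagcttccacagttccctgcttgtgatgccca
Axl chr7:25788734-25788983 (minus strand): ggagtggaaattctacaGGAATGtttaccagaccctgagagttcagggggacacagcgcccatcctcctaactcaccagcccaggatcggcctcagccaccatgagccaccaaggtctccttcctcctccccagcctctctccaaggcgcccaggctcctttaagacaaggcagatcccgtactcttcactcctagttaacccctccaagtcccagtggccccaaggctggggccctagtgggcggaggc
Yap1 chr9:8004597-8004846 (minus strand): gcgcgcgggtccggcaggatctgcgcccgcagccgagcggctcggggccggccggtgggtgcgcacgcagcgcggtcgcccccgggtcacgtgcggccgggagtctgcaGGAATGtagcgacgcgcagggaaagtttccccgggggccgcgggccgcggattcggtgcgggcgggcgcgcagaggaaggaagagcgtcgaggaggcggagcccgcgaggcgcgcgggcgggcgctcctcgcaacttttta

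**Figure D1:**
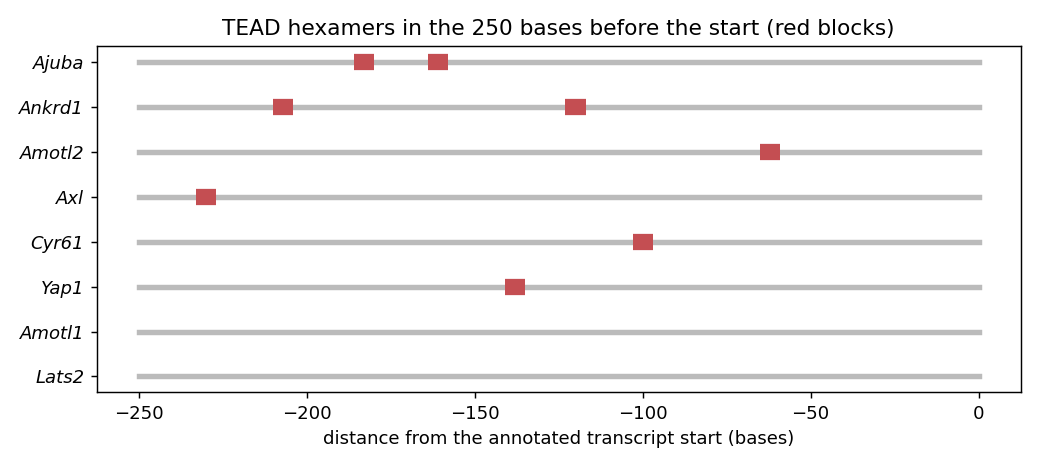
Position of TEAD hexamers (red blocks, either strand) in the 250 bases before the RefSeq start of the 8 genes with a RefSeq promoter; the horizontal axis is the distance from the start in bases. In Amotl2 and Cyr61 the block lies nearest the start, at 65 and 103 bases, and Amotl1 and Lats2 have none.

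Of the 10 genes, 7 were higher in the shMettl3_dox libraries, with no overlap between groups: Ankrd1, Ctgf, Ajuba, Cyr61, Lats2, Amotl2 and Axl. Among all tested genes 23.6% were higher without overlap. The 7 were also past an adjusted p of 0.05 in the fit over all genes (limma on log2(FPKM + 1)), as were 14.6% of tested genes in that direction. Nothing is read from these counts, since the genes were chosen with this contrast known. Amotl1 was lower without overlap, as were 21.5% of tested genes, and 0 of the 10 were called lower by limma (13.5% of tested genes). For Yap1 and Tead1 the groups overlapped. The median difference of the 10 in log2(FPKM + 1) was 0.45, beside 0.01 for all tested genes. None of the 10 was among the 1960 lower genes that the authors' deposited table lists, beside 13.8% of tested genes. A table of lower genes leaves no place for the 7 higher ones, so nothing is read from this either.

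**Figure D2:**
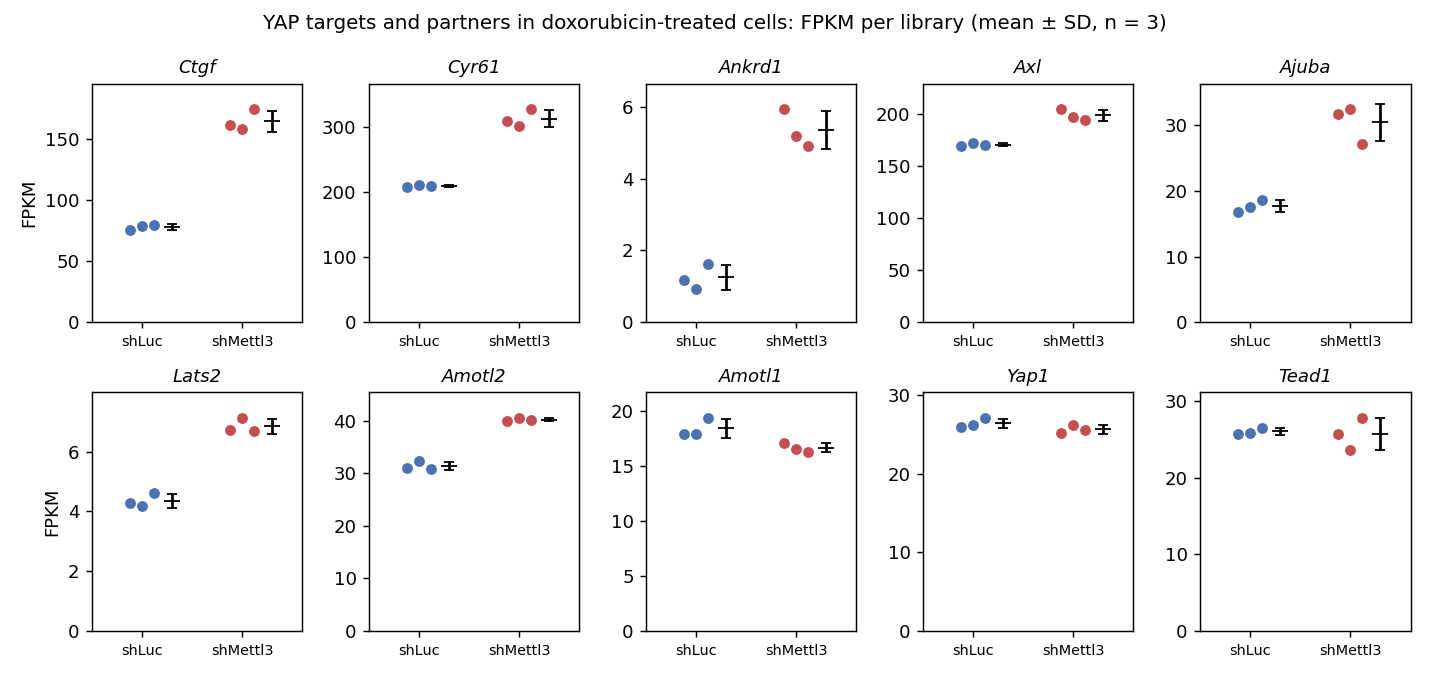
FPKM of the 10 genes in each library (vertical axes start at 0), with 3 shLuc_dox libraries in blue, 3 shMettl3_dox libraries in red, and the mean ± SD in black. The red points lie above all blue points in 7 panels, below them for Amotl1, and among them for Yap1 and Tead1.

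Ctgf, Cyr61 and Ankrd1 are the classical outputs. Ankrd1 (ENSMUSG00000024803, mm10 chromosome 19, 36111961 to 36120099, minus strand) encodes an ankyrin repeat protein of striated muscle that also acts in the nucleus. It was measured at 1.18, 0.929 and 1.62 FPKM in shLuc_dox replicates 1 to 3 and at 5.93, 5.18 and 4.92 FPKM in shMettl3_dox replicates 1 to 3. The lowest knockdown library stood well above the highest control. Means were 1.24 ± 0.347 and 5.34 ± 0.526 FPKM (SD over 3 libraries per group, as for all values below), which gives a ratio of 4.30. The difference in log2(FPKM + 1) was 1.51, and 5 of 12098 tested genes had a larger one. At this level the pseudocount shrinks it: DESeq2 on recovered reads gave 2.10. Ankrd1 rested on 33 to 264 reads per library and was the least abundant of the 10.

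Ctgf (ENSMUSG00000019997, chromosome 10, 24595442 to 24598683, plus strand) encodes a secreted matricellular protein of the CCN family. It was measured at 75.6, 78.9 and 79.4 FPKM in shLuc_dox and at 162, 158 and 175 FPKM in shMettl3_dox. Every knockdown library stood far above every control, with replicate 3 the highest. The mean went from 78.0 ± 2.07 to 165 ± 8.61 FPKM, a ratio of 2.11 and a difference of 1.07 in log2(FPKM + 1), which 28 tested genes exceeded. The noncoding Gm15270 on the other strand overlaps 23.2% of the Ctgf exon bases and averaged 0.0130 FPKM.

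Cyr61 (ENSMUSG00000028195, chromosome 3, 145646976 to 145649981, minus strand), another CCN protein gene, was the most abundant of the 10 in both groups. Its levels were 208, 211 and 209 FPKM in shLuc_dox and 309, 301 and 327 FPKM in shMettl3_dox. The groups lay far apart relative to their spread, with means of 209 ± 1.58 and 312 ± 13.3 FPKM. The ratio was 1.49 and the difference in log2(FPKM + 1) was 0.57. Ctgf thus gained on Cyr61: the ratio of their FPKM was 0.372 ± 0.00837 in shLuc_dox and 0.528 ± 0.00545 in shMettl3_dox, without overlap. The other CCN genes were low. Wisp1 stood at 2.17 ± 0.295 and 1.89 ± 0.0721 FPKM (limma adjusted p = 0.382), and Nov, Wisp2 and Wisp3 averaged under 1 FPKM. The relatives of Ankrd1 in the same ankyrin family, Ankrd2 and Ankrd23, were also under 1 FPKM.

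Axl (ENSMUSG00000002602, chromosome 7, 25757273 to 25788705, minus strand) encodes a receptor tyrosine kinase of the TAM family and is a reported YAP target in human cells. It was measured at 169.7, 173 and 171 FPKM in shLuc_dox and at 205, 197 and 195 FPKM in shMettl3_dox. The groups did not overlap, but the ratio was small, at 1.16, with a difference in log2(FPKM + 1) of 0.22 that 16.5% of tested genes exceeded. With quantile normalization the difference was 0.13. Of the other TAM receptors, Mertk fell from 14.5 ± 0.816 to 10.0 ± 0.260 FPKM (log2 difference -0.49, SE 0.0530, limma adjusted p = 0.00124). Tyro3 stood at 11.9 ± 0.507 and 13.5 ± 0.900 FPKM, higher without overlap as Axl was, and did not pass in limma (adjusted p = 0.0768); it passed in edgeR on recovered reads (adjusted p = 0.0439). Their shared ligand gene Gas6 stood at 5.13 ± 0.324 and 4.596 ± 0.114 FPKM (limma adjusted p = 0.157).

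Lats2, Ajuba and the angiomotins act upstream of YAP and are themselves among its targets. Lats2 (ENSMUSG00000021959, chromosome 14, 57689662 to 57758388, minus strand) encodes a kinase that inhibits YAP and TAZ. It was measured at 4.27, 4.17 and 4.61 FPKM in shLuc_dox and at 6.72, 7.13 and 6.68 FPKM in shMettl3_dox. The knockdown libraries were close to each other and all above the controls, with means of 4.35 ± 0.232 and 6.84 ± 0.245 FPKM. The ratio was 1.57 and the difference in log2(FPKM + 1) was 0.55. The paralogue Lats1 was more abundant and did not pass the test, at 15.8 ± 1.37 and 16.4 ± 1.14 FPKM (limma adjusted p = 0.648). The ratio of Lats2 to Lats1 was 0.276 ± 0.00946 in shLuc_dox and 0.420 ± 0.0391 in shMettl3_dox.

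The level of Lats2 relative to Lats1 is uncertain. The second row with the symbol Lats2 is ENSMUSG00000114942, named Gm49361 in GENCODE M21, a gene on the same strand that shares 42.4% of the Lats2 exon bases. It is listed at 0 FPKM in every library. Exons of Lats2 cover 89.9% of the Gm49361 exon bases and exons of Xpo4 10.1%. At 0 FPKM, Gm49361 was given no reads from the exons it shares with Lats2. The sources used here do not say whether such reads were counted for Lats2 or left out, and their part in the level was not tested.

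Ajuba (ENSMUSG00000022178, chromosome 14, 54567472 to 54577558, minus strand) encodes a LIM protein that binds LATS kinases and restrains them. It was measured at 16.8, 17.5 and 18.6 FPKM in shLuc_dox and at 31.8, 32.5 and 27.2 FPKM in shMettl3_dox. The lowest knockdown value, in replicate 3, was still well above the highest control. The mean went from 17.7 ± 0.917 to 30.5 ± 2.84 FPKM, a ratio of 1.73 and a difference of 0.75 in log2(FPKM + 1), which 77 tested genes exceeded. Without shMettl3_dox replicate 3 the difference was 0.83. Of its relatives, Limd1 rose from 14.3 ± 0.201 to 19.2 ± 0.732 FPKM (log2 difference 0.40, SE 0.0438, limma adjusted p = 0.00122). Wtip stood at 17.3 ± 2.56 and 17.6 ± 1.85 FPKM (limma adjusted p = 0.900).

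The angiomotins are scaffold proteins that hold YAP in the cytoplasm and at junctions. Amotl2 (ENSMUSG00000032531, chromosome 9, 102716672 to 102733418, plus strand) was measured at 31.0, 32.3 and 30.9 FPKM in shLuc_dox and at 40.0, 40.6 and 40.3 FPKM in shMettl3_dox. Its knockdown libraries had the smallest relative spread of the 10 genes, at 0.790% of the mean. The ratio was 1.28 and the difference in log2(FPKM + 1) was 0.35. Amotl1 (ENSMUSG00000013076, chromosome 9, 14541966 to 14645056, minus strand) had values of 17.9, 17.9 and 19.4 FPKM in shLuc_dox and at 17.1, 16.6 and 16.3 FPKM in shMettl3_dox. The knockdown values lay just under the controls, with a ratio of 0.905 and a difference of -0.14. Amot rose from 7.02 ± 0.473 to 8.69 ± 0.365 FPKM (log2 difference 0.27, SE 0.0610, limma adjusted p = 0.0169). The ratio of Amotl1 to Amotl2 was 0.587 ± 0.0364 in shLuc_dox and 0.414 ± 0.0131 in shMettl3_dox, without overlap. The call for Amot was lost without shLuc_dox replicate 1 (adjusted p = 0.0540) or replicate 2 (0.0567).

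Yap1 and Tead1, which encode the coactivator and the DNA-binding factor, were at like levels in both groups. Yap1 (ENSMUSG00000053110, chromosome 9, 7931999 to 8004596, minus strand) had values of 25.96, 26.2 and 27.1 FPKM in shLuc_dox and at 25.2, 26.2 and 25.5 FPKM in shMettl3_dox. The ranges overlapped, and the ratio of means was 0.971. Tead1 (ENSMUSG00000055320, chromosome 7, 112679318 to 112906807, plus strand) was measured at 25.8, 25.8 and 26.6 FPKM in shLuc_dox and at 25.7, 23.7 and 27.8 FPKM in shMettl3_dox. Its knockdown libraries spanned the controls on either side, and the ratio of means was 0.988. The lowest read count of a library was 4221 for Yap1 and 5624 for Tead1.

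Their paralogues did move. Wwtr1, which encodes TAZ, fell from 36.2 ± 2.07 to 29.2 ± 2.48 FPKM (log2 difference -0.31, SE 0.0705, limma adjusted p = 0.0191). Leaving out shLuc_dox replicate 1 (limma adjusted p = 0.0663) or 3 (0.0651) ended the call, as did leaving out shMettl3_dox replicate 1 (0.0657) or 2 (0.0582) and testing all genes without a filter on low values (0.0525). The summed FPKM of Yap1 and Wwtr1 was 62.7 ± 2.44 in shLuc_dox and 54.8 ± 2.44 in shMettl3_dox, without overlap. Among the TEAD genes Tead2 rose from 20.02 ± 0.554 to 23.3 ± 0.628 FPKM (limma adjusted p = 0.0126). Tead4 rose from 11.9 ± 0.573 to 15.9 ± 1.47 FPKM (limma adjusted p = 0.00818). Tead3 fell from 7.22 ± 0.548 to 5.29 ± 0.547 FPKM (limma adjusted p = 0.0142; 0.0515 without shLuc_dox replicate 1). Tead1 had the highest mean of the 4 in both groups, but in shMettl3_dox its range overlapped that of Tead2. The sum of the 4 was 65.2 ± 0.251 FPKM in shLuc_dox and 70.2 ± 0.696 in shMettl3_dox.

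**Figure D3:**
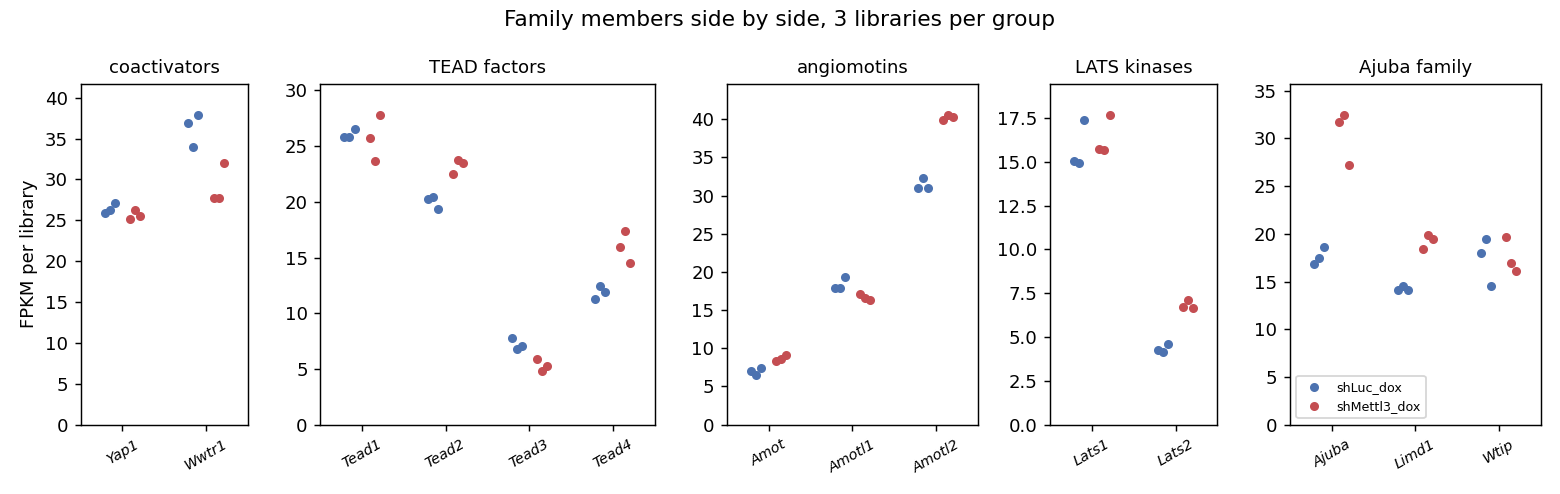
FPKM per library for the coactivator, TEAD, angiomotin, LATS and Ajuba families, with shLuc_dox in blue and shMettl3_dox in red; each panel starts at 0. Blue and red overlap for Yap1, Tead1, Lats1 and Wtip and are apart for the other genes, with red lower for Wwtr1, Tead3 and Amotl1.

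In order of FPKM in shLuc_dox the 10 genes ran Cyr61, Axl, Ctgf, Amotl2, Yap1, Tead1, Amotl1, Ajuba, Lats2 and Ankrd1. Neighbours in this order did not overlap, except Yap1 with Tead1 and Amotl1 with Ajuba. Cyr61 stood above 98.8% of tested genes and Ankrd1 above 3.22%. In shMettl3_dox Ajuba had moved from the eighth to the fifth place, between Amotl2 and Tead1, and overlapped Tead1. Ankrd1 remained the lowest but now stood above 35.8% of tested genes. Yap1 and Tead1 overlapped in both groups.

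**Figure D4:**
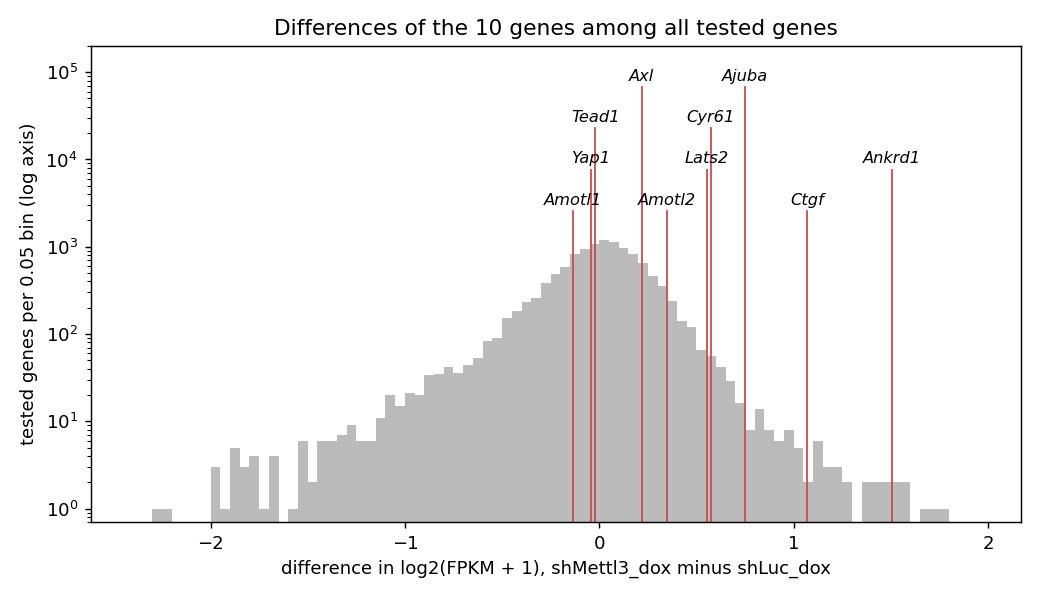
Differences in log2(FPKM + 1) between the groups for 12098 tested genes (grey, log vertical axis), with the 10 genes as red lines. Ankrd1 (1.51) and Ctgf (1.07) lie in the thin upper tail, while Yap1, Tead1 and Amotl1 lie within the bulk around 0.

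The paralogues and partners of the 10 form a list of 17 genes, of which 12 were tested and 5 averaged under 1 FPKM. Of the 12, 4 rose (Limd1, Tead4, Amot and Tead2; 33.3%, beside 14.6% of all tested genes), 3 fell (Mertk, Tead3 and Wwtr1; 25.0%, beside 13.5%) and 5 did not pass. The median difference was 0.04, beside 0.01 for all tested genes. Like the lists that follow, this list was chosen with earlier results of these data known, so its counts are a description. The authors' deposited table, made from these same libraries, also lists Tead3, Wwtr1 and Mertk as lower.

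For the Hippo cascade upstream of YAP, 40 of 45 kinases, scaffolds, adaptors and cofactors were tested. Of these 10 fell (25.0%, beside 13.5% of all tested genes), 7 rose (17.5%, beside 14.6%, a share near that of all tested genes) and 23 did not pass. The median difference was -0.03. Map4k1, a kinase gene best known in blood cells, went from 6.22 ± 0.822 to 2.26 ± 0.389 FPKM (log2 difference -1.15, SE 0.120, limma adjusted p = 0.00108). Dchs1, which encodes a large cadherin that binds the Fat cadherins, fell from 2.33 ± 0.254 to 0.864 ± 0.0302 FPKM (-0.83, limma adjusted p = 0.00195). The phosphatase gene Ptpn21 rose from 14.1 ± 0.299 to 18.8 ± 0.881 FPKM (0.39, limma adjusted p = 0.00199). Wwc1, which encodes the scaffold KIBRA, rose from 12.3 ± 0.642 to 16.1 ± 0.727 FPKM (0.36, limma adjusted p = 0.00434), and the kinase gene Csnk1e rose by 0.28. Mob1a, a LATS cofactor gene, stood at 46.6 ± 1.65 and 46.8 ± 0.774 FPKM, and Ywhaz, which encodes a 14-3-3 protein that binds phosphorylated YAP, at 137 ± 7.27 and 136 ± 6.42. The count of falls was 6, 5 and 6 without shLuc_dox replicates 1 to 3, 6 without shMettl3_dox replicate 1 or 2, and 14 without shMettl3_dox replicate 3.

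Outside the 10, a 22-gene target signature derived in human tumours holds 16 genes, of which 12 were tested. Of these 1 rose (8.33%, beside 14.6% of all tested genes), 2 fell (16.7%, beside 13.5%) and 9 did not pass, with a median of -0.02. These shares are near those of all tested genes. Crim1, a transmembrane protein gene, rose from 41.7 ± 1.54 to 57.0 ± 0.245 FPKM (log2 difference 0.44, SE 0.0401, limma adjusted p = 0.000651). Ptpn14, which encodes a phosphatase that binds and restrains YAP, fell from 42.6 ± 1.03 to 27.6 ± 1.29 FPKM (-0.61, SE 0.0464, limma adjusted p = 0.000338). Arhgef17 fell from 23.4 ± 0.347 to 19.1 ± 0.778 FPKM (-0.28, limma adjusted p = 0.00459). Rbms3 and the stress gene Gadd45a had differences of 0.29 and -0.33 and did not pass (limma adjusted p = 0.0742 and 0.0772); edgeR and DESeq2 on recovered reads called Rbms3 higher. Myof and Asap1 stood at 0.08 and 0.10 and did not pass.

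A longer list of 30 further reported targets, put together from knowledge of the field, had 22 tested genes. Of these 10 rose (45.5%, beside 14.6% of all tested genes), 5 fell (22.7%, beside 13.5%) and 7 did not pass, with a median of 0.23. Fstl1, a secreted glycoprotein gene, rose from 26.1 ± 1.17 to 36.0 ± 0.789 FPKM (log2 difference 0.45, limma adjusted p = 0.000973). Birc5, which encodes survivin, rose by 0.42 and Flna, which encodes the actin crosslinker filamin A, by 0.37. The cyclooxygenase gene Ptgs2 fell most in the list, from 17.3 ± 1.82 to 5.28 ± 0.431 FPKM (-1.54, SE 0.0876, limma adjusted p = 0.000127). The cyclin gene Ccnd1 stood at 94.9 ± 1.11 and 95.5 ± 2.40 FPKM (limma adjusted p = 0.873). Many of these genes answer to other pathways as well. The list was put together with earlier results of these data known, so its counts are a description and nothing is read from them.

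**Figure D5:**
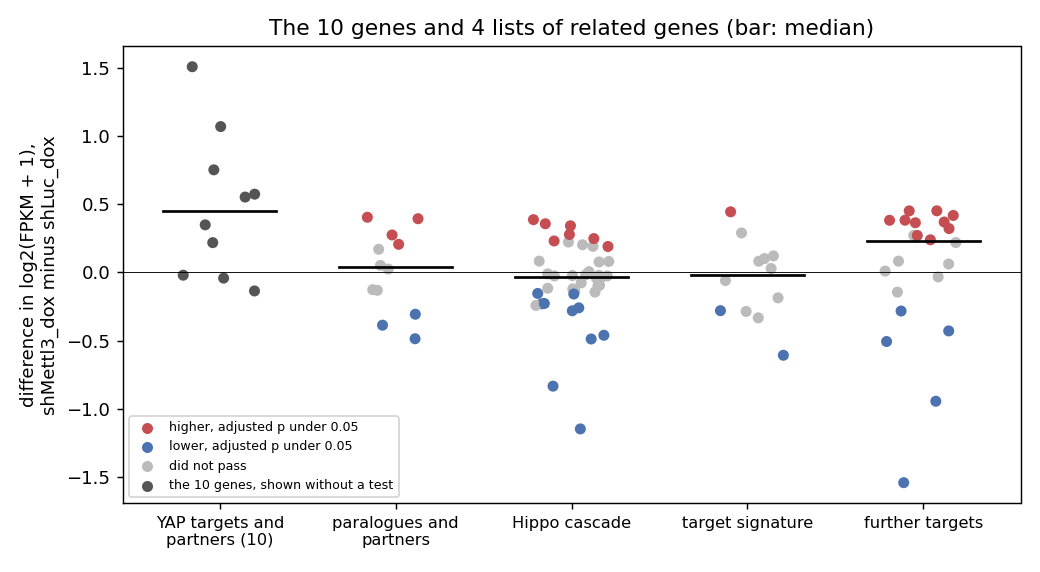
Difference in log2(FPKM + 1) for the 10 genes (dark grey, no test) and for the tested genes of the 4 related lists, where red passed the test as higher, blue as lower and light grey did not pass; black bars are medians. The bar stands at 0.45 for the 10 genes, 0.23 for the further targets and within 0.04 of 0 for the other lists. The 10 genes and all lists were chosen with earlier results of these data known.

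The genes whose profile over the 6 libraries lay closest to that of a classical output were found by the Euclidean distance of centred log2(FPKM + 1) values, among 10524 protein-coding tested genes, predicted models left out. For Ankrd1 these were Ehd2 (distance 0.379), Ifi27 (0.445) and Trim30a (0.480). For Ctgf they were Lgals9 (0.0761), Ndufaf4 (0.133) and Klf2 (0.156). For Cyr61 they were Gxylt1 (0.0640), Tor1aip2 (0.0700) and Steap2 (0.0780). As an example, Lgals9 stood at 2.73 ± 0.0342 FPKM in shLuc_dox and 6.58 ± 0.299 in shMettl3_dox. Its difference in log2(FPKM + 1) was 1.02, beside 1.07 for Ctgf. The distance includes the difference between groups, which was known when the 10 genes were chosen. Near genes are thus largely those with a like difference, and shared control was not tested. Trim30a belongs to a family of similar genes that may share reads.

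Because Ankrd1 is chiefly a gene of striated muscle, muscle markers were read beside it. Of 8 such markers 1 averaged at least 1 FPKM: Des, which fell from 6.28 ± 0.461 to 2.80 ± 0.436 FPKM (limma adjusted p = 0.00102). The 8 summed to 6.06 to 6.99 FPKM in shLuc_dox and to 2.62 to 3.38 in shMettl3_dox, nearly all from Des. The sum thus follows 1 gene and gives no direction for muscle markers as a set. Epithelial markers summed to 49.2 to 52.8 FPKM in shLuc_dox and to 29.4 to 35.8 in shMettl3_dox, nearly all from Krt18, with Krt14 at 0. Of the 8, 2 averaged at least 1 FPKM, Krt18 and Epcam, and limma called both lower (adjusted p = 0.00278 and 0.0171). Epcam stood at 4.14 ± 0.416 FPKM in shLuc_dox and 2.66 ± 0.449 in shMettl3_dox. Blood markers summed to 15.5 to 18.3 and to 9.51 to 11.2 FPKM, mostly from Cd68, with Cd3e at 0. Endothelial markers summed to less than 1 FPKM in each library, with Emcn at 0. The part of these levels in the results was not tested; in bulk libraries fewer cells of a type and less RNA per cell cannot be told apart.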

How the data were processed

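RNA-seq was done on 6 libraries of total RNA. Per the submitters' processing notes, the tools were DESeq2, STAR, fastp and featureCounts 1.5.3 and the genome was mm10; whether counting used strand is not stated. The authors deposited FPKM for 54532 genes, and a table of 1960 lower genes that holds log2 fold changes, p-values and, as signal, normalized read counts. The normalized counts deposited by the authors were whole multiples of 1 step per library. With these steps and GENCODE M21 exon lengths, FPKM came out as whole reads (tolerance 0.001) for 96.7% of genes above 0; another whole-number length served for 872 genes. Gene coordinates (1-based, mm10) come from GENCODE M21.

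Genes were tested with limma 3.58.1 (R 4.3.3) on log2(FPKM + 1) with an intensity trend, two-sided, for genes averaging at least 1 FPKM, with Benjamini-Hochberg adjustment over all 12098 and a threshold of 0.05. Fold changes on this scale understate the change of low genes. edgeR 4.0.16 and DESeq2 1.42.0 on recovered reads, other pseudocounts, filters and scalings, the replicate number as a block, and leaving out each library were alternatives. Only the limma, edgeR and DESeq2 fits were tested on simulated counts, which had a fixed spread and no outlying library. The 10 genes and all lists were chosen with earlier results of these data known. The rule for named genes took Mettl3, the 10 genes, every paralogue or partner, up to 5 genes with the smallest p and 2 abundant ones with the largest p in each other list, and the 3 nearest profiles; markers and counted list members are named besides, and 1 gene that the rule names is not reported here. Nothing in the labels states that replicates are separate cultures, and p-values then reflect sample-to-sample spread that may be only technical. Python 3.11.15, numpy 2.4.6, pandas 2.3.3 and matplotlib 3.10.9 were used.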

Additional observations from a re-analysis of the deposited data

How the results depend on the processing

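Across all alternatives, the 6 that leave out a library included, the same 7 of the 10 genes were called higher, except that Ankrd1 was not tested with a minimum mean of 5 FPKM, which left 6. In the direction of falls the count was 0, and 1 (Amotl1) with the protein-coding scaling, edgeR and DESeq2. Since the 10 genes were chosen with this contrast known, nothing is read from these steady counts. Of all 12098 tested genes, 1013 (without shLuc_dox replicate 2) to 2049 (edgeR) were called higher over the alternatives. The median log2 difference of the 10 was 0.44 to 0.46 when a library was left out and 0.35 with the minimum of 5 FPKM. Ankrd1 ranged from 1.41 to 2.11 and Axl from 0.13 to 0.23 over the alternatives; Tead1 ranged from -0.08 to 0.04.

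Leaving out a library gave 1060 (without shLuc_dox replicate 2) to 1646 lower and 1013 to 1854 higher genes in all; the higher count was 1059, 1013 and 1146 without shLuc_dox replicates 1 to 3 and 1060 without shMettl3_dox replicate 1. The same alternatives gave 1 (without shLuc_dox replicate 1) to 3 falls among paralogues and partners and 5 to 14 among Hippo genes. The protein-coding scaling gave 1922 lower and 1264 higher genes, against 1633 and 1763. The target signature had 2 rises with quantile normalization, edgeR or DESeq2, and the further targets 3 falls with the minimum of 5 FPKM. Fewer genes and samples enter some of these fits; other causes were not tested. Replicate numbers did not pair the libraries (correlations of same-numbered deviations 0.0340, -0.00680 and 0.0631). With the replicate number as a block 1525 genes were lower and 1676 higher, and 7 of the 10 stayed higher; Tyro3 passed (adjusted p = 0.0499). Ankrd1 and Lats2 rest on the fewest reads of the 10 genes, at most 264 and 1182 per library.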

Other observations

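Mettl3 methylates adenosine in a sequence context of which GGACU is the best known form. In the longest protein-coding GENCODE M21 transcript of each gene, GGACT (the DNA spelling) occurred once in Ctgf and 11 times in Amotl1, the extremes of the 10 genes. Per kilobase the count ran from 0.402 in Ctgf to 2.06 in Ajuba, with a median of 0.964 over the 10 and 1.04 over 10653 tested genes. Cyr61 (1.98 per kilobase) and Ajuba stood above 88.5% and 89.9% of those genes and Ctgf above 13.2%. Methylation itself was not measured in these libraries.

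Within the shLuc_dox group replicate 3 had the highest FPKM for 7 of the 10 genes and replicate 1 the lowest for 6. Within shMettl3_dox the highest values were spread over the libraries, at 3, 4 and 3 genes.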
